A study of Mus musculus with 5 samples.

Results

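The mRNAs that encode the proteins of the cytosolic ribosome were followed in mouse liver tumours with and without late overexpression of the transcription factor Prox1. Members were the protein coding genes whose mouse symbol names a ribosomal protein of the large (Rpl) or the small (Rps) subunit, including the stalk proteins and Rpsa, and whose mean normalised count over the 5 libraries was at least 100. This gave 80 members of the 55397 genes in the table, 48 of the large and 32 of the small subunit, and all 80 passed the filter of the test. Tumours were raised in 8-week-old female C57BL/6N mice by hydrodynamic tail vein injection, which brings plasmids into hepatocytes. All mice received Sleeping Beauty transposase with transposon plasmids that drove Akt and the NOTCH1 intracellular domain (NICD, with the doxycycline-responsive activator rtTA) from an EF1a promoter. The 3 Prox1 OE libraries came from tumours that also carried FLAG-tagged mouse Prox1 with GFP behind a Tre promoter, and the 2 Control libraries from tumours with GFP alone behind it. Both groups belong to a design in which doxycycline food (6.25%) was given from day 21 to induce the Tre plasmid from week 3 to week 4. Tumour pieces were dissected after a week of induction or at a humane endpoint, which is not given per tumour, so that each library is bulk RNA of transformed hepatocytes and whatever host cells the piece held.

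Cytosolic ribosomes join a small subunit, which reads the mRNA, to a large subunit, which forms the peptide bonds. Their proteins are made in near equal numbers, and their mRNAs are among the most abundant of growing cells. Most of these mRNAs begin with a C followed by an unbroken run of pyrimidines, the terminal oligopyrimidine (TOP) tract, through which the kinase complex mTORC1, downstream of Akt, controls how well they are translated. Messenger RNA levels, as measured here, do not show that control of translation.

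The start of the mRNA carries this tract, so windows of 30 bases centred on annotated start sites are shown for 8 members whose values are given further on. Sequences are from RefSeq on GRCm38, the sequence of mm10, 5′ to 3′ on the coding strand, with the longest run of C and T in capitals.
Rps6, chr4:86857353-86857382, minus strand: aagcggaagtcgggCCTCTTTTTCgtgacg
Rplp2, chr7:141447636-141447665, plus strand: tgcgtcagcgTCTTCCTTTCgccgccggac
Rpl15, chr14:18270972-18271001, minus strand: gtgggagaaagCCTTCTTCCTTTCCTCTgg
Rpl22l1, chr3:28805493-28805522, plus strand: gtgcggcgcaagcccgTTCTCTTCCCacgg
Rps27, chr3:90213634-90213663, minus strand: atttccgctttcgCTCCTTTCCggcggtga
Rps27l, chr9:66946071-66946100, plus strand: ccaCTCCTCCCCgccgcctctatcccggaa
Rps15, chr10:80292416-80292445, plus strand: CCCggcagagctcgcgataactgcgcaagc
Rpl5, chr5:107900513-107900542, plus strand: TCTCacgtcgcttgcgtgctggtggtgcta
The first 6 windows hold a run of at least 8 pyrimidines and the last 2 do not. By the annotation, the run of Rps27l ends before the start and so outside that mRNA, while the other 5 runs reach into the transcript. The run of Rpl22l1 begins after the first annotated base, which is a G. Windows were searched for any run of C and T, not for a tract that begins with C at the first base. Whether the mRNAs begin at the annotated base was not tested, so a window with or without a run does not settle whether a TOP tract is present. Rps27l has a further annotated start site (chr9:66946398-66946427), in whose window the longest run was 4. Of the members, 60 had a RefSeq promoter, with 71 start sites between them. A run of at least 8 pyrimidines lay in 39.4% of these windows, against 12.0% of all 32851 start sites. In the promoters of 300 bases (250 before the start and 50 after it), CTTTCC on the coding strand was found in 38.0% of member promoters and 14.1% of all. CCGGAAG, the core bound by ETS family factors, was found on either strand in 36.6% and 8.86%, and AAGATGGCG, the core of the YY1 motif, on either strand in 8.45% and 1.40%. CACGTG, the E-box that Myc can bind, was in 11.3% and 7.15% on either strand, and TATAAA in 8.45% and 8.32% on the coding strand. These are matches of letters only.

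The libraries held 48740863 to 56629477 reads, and 1 read was worth 0.822 to 1.18 normalised counts. In normalised counts, Prox1 read 4153 and 4664 in Control and, in the order of replicates 1 to 3, 48090, 11113 and 8231 in Prox1 OE. It was therefore higher in each Prox1 OE library, with a log2 fold change of 1.90 (SE 0.66, limma adjusted p = 0.061). Its level in replicate 1 was far from the other 2. Without that library the log2 fold change was 1.12 (limma adjusted p = 0.0056). Marker lists showed that the groups also differed in cell type content or state: 9 of 10 hepatocyte markers were higher (median log2 fold change 1.72), 8 of 10 cholangiocyte markers were lower (median -1.14) and 9 of 10 proliferation markers were lower (median -0.74), where 17.1% of all genes were higher and 16.2% lower. Of the host cell lists, 4 of 8 macrophage, 5 of 9 lymphocyte, 3 of 7 endothelial and 1 of 5 red blood cell markers were higher and 0 lower, and of 8 stellate cell and fibroblast markers 2 were higher and 3 lower. The red blood cell count is near the share of all genes. These counts are with the size factors. Total count scaling gave 3 higher macrophage, 2 higher lymphocyte and 1 higher red blood cell markers, with 0 lower in these lists. It gave 2 higher and 3 lower endothelial markers, and 1 higher and 5 lower stellate cell and fibroblast markers. Of all genes, 8.62% were higher and 39.9% lower in that fit. None of the hepatocyte, cholangiocyte or proliferation markers was at 0, and cholangiocyte markers summed to 764100 to 833020 normalised counts in Control and 527632 to 713530 in Prox1 OE. In bulk tissue, fewer cells of a type and less RNA per cell cannot be told apart.

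Ribosomal protein mRNAs did not pass the test in either direction in a comparison in which many other genes did. Of the 80 members, 0 were higher and 0 lower in Prox1 OE at a limma adjusted p of 0.05. The same test called 33.3% of all 17105 genes tested, 17.1% higher and 16.2% lower. At an unadjusted p under 0.05, 1 member passed (1.25%) against 45.8% of all genes. edgeR on the recovered reads called 0 members (33.6% of all genes) and DESeq2 called 1, Rps27l (33.4%). Of the 808 genes with a mean of at least 10000 normalised counts, 55.4% were called. The median log2 fold change of the members was 0.05 (quartiles -0.01 and 0.15, SD over members 0.12), with 56 above and 24 below 0. Over all genes it was -0.02 (quartiles -0.42 and 0.43, SD 0.86). A log2 fold change smaller than 0.25 in size was found for 76 members (95%) and 31.5% of all genes. The standard error of a fold change had a median of 0.18 over members and over all genes. Both subunits gave nearly the same median, 0.06 for the large and 0.04 for the small.

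Within the Prox1 OE group, nearly all members were lowest in the same library, while the 2 Control libraries lay close together. The library labelled Prox1 OE replicate 1 was the lowest of all 5 for 75 of 80 members, which held for 15.5% of all genes. It lay below both other Prox1 OE libraries for 79 members, Rps10 being the exception, against 35.3% of all genes. Replicates 2 and 3 both lay above both Control libraries for 69 members, against 38.3% of all genes. Relative to the mean of the Controls, the members' median log2 deviation was -0.03 and 0.03 in the Controls, -0.26 in Prox1 OE replicate 1, 0.25 in replicate 2 and 0.19 in replicate 3, while over all genes it stayed between -0.02 and 0.01 in every library. Groups did not overlap for 1 member, Rps27l, against 63.3% of all genes.

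**Figure D1:**
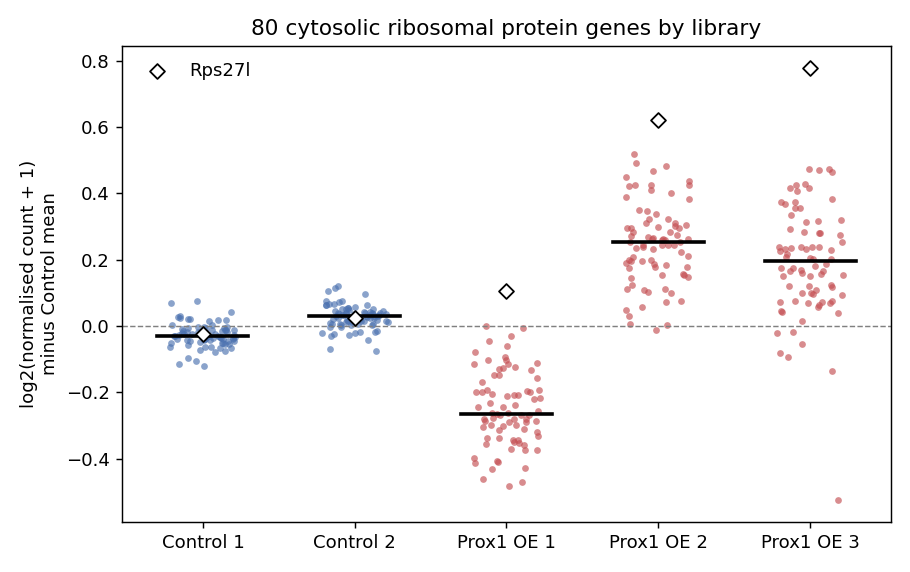
Log2(normalised count + 1) of each of the 80 members minus its Control mean (vertical axis) in each library (horizontal axis), with 1 point per gene, a bar at the median and Rps27l as an open diamond. The members of Prox1 OE replicate 1 centre on -0.26 and those of replicates 2 and 3 on 0.25 and 0.19, on either side of the Controls.

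The difference between Prox1 OE replicate 1 and the mean of the other 2 had a median of -0.48 on the log2 scale over members (range -0.74 to -0.17) and of 0.03 over all genes. It was largest for Rps21 (-0.74) and Rpl37a (-0.73) and smallest for Rpl15 (-0.17) and Rpl7l1 (-0.19). Replicate 1 was also the library with the highest Prox1 and the highest share of mitochondrially encoded reads (4.38%, against 2.77% and 3.80% in the other Prox1 OE libraries and 3.00% and 2.83% in Control). The part of either in the members' level was not tested. Without that library, 15 members were higher and 0 lower, with a median log2 fold change of 0.22, where the same fit called 43.8% of all genes and 21.9% as higher. Among these were Rpl11, Rpl26, Rpl27, Rpl36, Rpl37, Rpl37a, Rpl38, Rpl41, Rplp1, Rps14, Rps15, Rps21, Rps27l and Rps29, and all 15 were positive in the fit of 5 libraries too. The 15 members are a share near that of all genes called higher in the same fit. Leaving out any other library gave 0 calls among the members, but the share of all genes called also fell in those fits, to 6.77% without Control replicate 1, 13.3% without Control replicate 2, 22.7% without Prox1 OE replicate 2 and 24% without Prox1 OE replicate 3, so a count of 0 says less there than beside the 33.3% of the 5 libraries.

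A share of reads does not depend on the scaling between libraries, and it gave a different picture. The members together held 4.29% and 4.20% of the Control reads and, from replicate 1 to 3, 2.79%, 3.89% and 3.31% of the Prox1 OE reads. The Prox1 OE libraries were thus all below both Controls, with means of 4.24% ± 0.06 (SD, n = 2) and 3.33% ± 0.55 (SD, n = 3). Shares are tied to what the most abundant genes take. The 10 most abundant genes held 8.49% and 9.46% of reads in Control and 14.9%, 13.0% and 14.8% in Prox1 OE, among them Alb, the albumin gene, with 1.11% and 1.74% against 3.45%, 2.71% and 3.96%. Leaving those 10 genes out of the total gave 4.69% and 4.64% in Control and 3.28%, 4.47% and 3.89% in Prox1 OE, still without overlap. With the total count in place of the size factor, the members' median log2 fold change was -0.38, 79 of 80 were negative, 18 were lower and 0 higher. All genes moved the same way under that scaling, with a median of -0.44 and 39.9% of genes lower, so the members were again near the middle of the transcriptome. Without Prox1 OE replicate 1 that scaling gave 12 members lower, beside 44.5% of all genes.

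**Figure D2:**
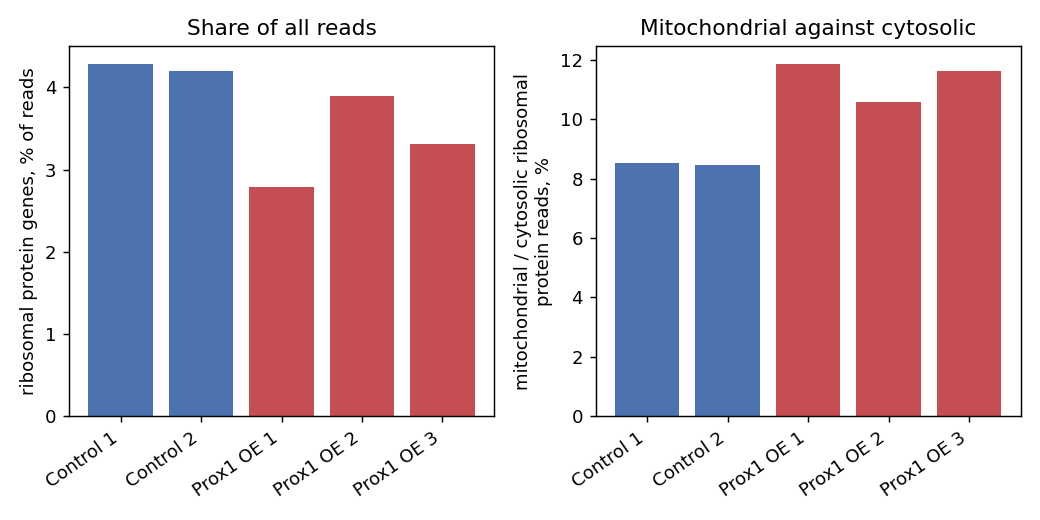
Left, reads on the 80 members as a percentage of all reads in each library. Right, summed reads on mitochondrial ribosomal protein genes as a percentage of those on the members. Bars are single libraries. The share was 4.29% and 4.20% in Control and 2.79% to 3.89% in Prox1 OE, while the ratio on the right was higher in all 3 Prox1 OE libraries.

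By role, the stalk proteins of the large subunit, which recruit elongation factors, had estimates on both sides of 0. Rplp1 read 40755 and 42990 normalised counts in Control and 38204, 58470 and 57790 in Prox1 OE, a log2 fold change of 0.27 (SE 0.22, adjusted p = 0.37). Rplp2 read 18326 and 20123 in Control and 13868, 23595 and 22109 in Prox1 OE, a log2 fold change of 0.01 (SE 0.23). Rplp0, on which the other stalk proteins are anchored, read 58986 and 59242 in Control and 48683, 59280 and 55900 in Prox1 OE, a log2 fold change of -0.12 (SE 0.17). In all 3 genes Prox1 OE replicate 1 was the lowest library and the groups overlapped, so the stalk did not move as a unit beyond the spread between libraries.

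Rpl5 and Rpl11 form a particle with 5S rRNA that can bind Mdm2 and so stabilise p53. Rpl5 read 29804 and 31919 in Control and 23213, 30993 and 28924 in Prox1 OE (log2 fold change -0.17, SE 0.17). Rpl11 read 24146 and 25017 in Control and 22448, 32190 and 31851 in Prox1 OE (0.21, SE 0.19). The estimates had opposite signs, and neither passed the test (adjusted p = 0.48 and 0.42). Of the 6 genes of this particle and the p53 checkpoint, 0 were higher and 1 was lower, against 16.2% of all genes lower, and with the total count scaling 5 were lower, against 39.9%. The gene called with the size factors was Trp53, the p53 gene itself, with 3986 and 3535 normalised counts in Control and 2840, 2889 and 2531 in Prox1 OE (log2 fold change -0.45, SE 0.12, adjusted p = 0.026).

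Rps6, the substrate of the S6 kinases and the usual protein readout of mTORC1 activity, read 16700 and 17404 in Control and 15614, 18952 and 17895 in Prox1 OE. Its log2 fold change was 0.03 (SE 0.14, adjusted p = 0.87). Rpsa, a small subunit protein also known as the laminin receptor, read 49721 and 53668 in Control and 44695, 61948 and 62936 in Prox1 OE (0.11, SE 0.20). Rpl4, which lines the exit tunnel for the new chain, read 56296 and 56114 in Control and 53216, 62705 and 60272 in Prox1 OE (0.06, SE 0.16). The 2 Control libraries lay close together for these genes, while Prox1 OE replicate 1 fell below them and the other 2 rose above.

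After Rps27l, the members with the largest differences were Rps15 (0.28), Rplp1, Rpl37a (0.25), Rps29 (0.25), Rpl27 (0.24), Rpl26 (0.24) and Rpl24 (0.24), all with adjusted p-values between 0.32 and 0.47. Rps15, in the head of the small subunit, read 21823 and 22991 in Control and 20729, 31508 and 31038 in Prox1 OE, so replicate 1 lay below both Controls and the other 2 well above. Rps29, a small zinc-binding protein, gave 23672 and 24598 in Control and 21488, 32650 and 33522 in Prox1 OE. At the other end stood genes such as Rps3, Rpl10a, Rps24 and Rplp2, whose log2 fold changes were between -0.01 and 0.01. Rps3, at the entry of the mRNA channel, read 35299 and 33872 in Control and 30113, 39114 and 34977 in Prox1 OE, which shows that a difference near 0 still spanned libraries on both sides.

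Rps27l, a paralogue of Rps27 that p53 can induce, was the member furthest from the rest. It read 8407 and 8684 in Control and 9196, 13143 and 14673 in Prox1 OE. Each Prox1 OE library lay above both Controls, replicate 1 by the least. The estimate was a log2 fold change of 0.50 (SE 0.20), with an adjusted p of 0.090 by limma. The call depended on the processing: DESeq2 gave an adjusted p of 0.044, and the fit without Prox1 OE replicate 1 gave a log2 fold change of 0.70 with an adjusted p of 0.0057. Total count scaling gave 0.07 with 0.75, so that over all alternatives adjusted p-values ran from 0.0057 to 0.75.

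A ratio to the partner within each library removes the scaling and the level shared by the members. Rps27l stood at 41.7% and 41.7% of the count of Rps27 in the Control libraries and at 61.8%, 52.2% and 65.7% in Prox1 OE. Prox1 OE replicate 1, low for the members at large, was within the range of the other 2 for this ratio. The log2 ratio was higher by 0.52 in Prox1 OE (means -0.75 ± 0.17 SD, n = 3, and -1.26 ± 0.0008 SD, n = 2), with a two-sided exact permutation p = 0.2, the smallest that 2 against 3 libraries allow, and 0.3 after adjustment over the 3 pairs. Rps27 itself read 20143 and 20824 in Control and 14873, 25184 and 22317 in Prox1 OE (log2 fold change -0.01, SE 0.22).

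Neither of the other pairs showed a difference of that size. Rpl22l1 read 36.8% and 34.9% of Rpl22 in Control and 38.6%, 35.9% and 36.7% in Prox1 OE, which overlapped (difference in log2 ratio 0.05, exact permutation p = 0.6). Rpl7l1, a nucleolar relative of Rpl7, read 13.6% and 13.1% of its partner in Control and 15.01%, 13.8% and 13.8% in Prox1 OE (0.09, exact permutation p = 0.2, adjusted 0.3). Ratios of counts take in the lengths of both transcripts and so compare libraries, not molecules.

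**Figure D3:**
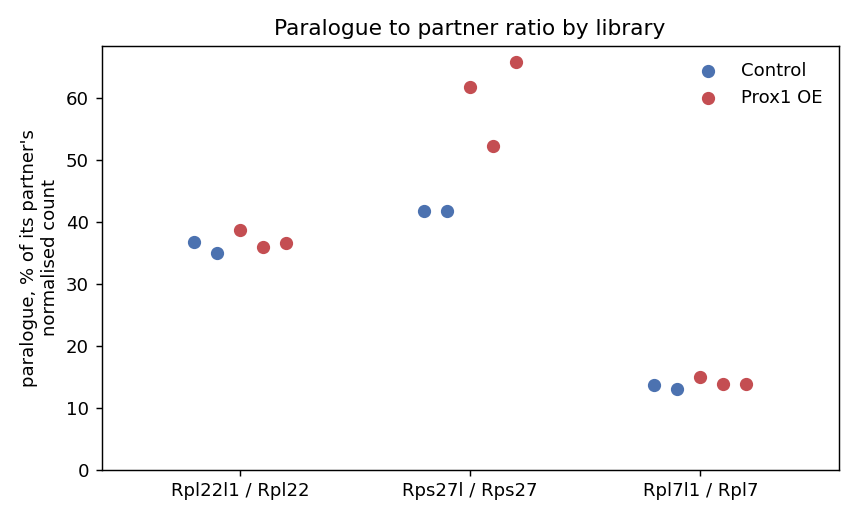
Normalised count of each paralogue as a percentage of its partner's (vertical axis) for the 3 pairs, with 1 point per library. Rps27l stood at 41.7% of Rps27 in both Control libraries and at 52.2% to 65.7% in the 3 Prox1 OE libraries.

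When every library was divided by the geometric mean of the members, which asks whether any ribosomal protein left the others, 0 of 80 members were called, against 14.2% of all genes. Relative log2 fold changes ran from -0.26 (Rps10) to 0.43 (Rps27l), and the lowest adjusted p was 0.17. Groups did not overlap on this scale for 38 members (47.5%), 15 higher and 23 lower, a share close to the 48.6% of all genes. Without Prox1 OE replicate 1, Rps27l was the member called (0.48, adjusted p = 0.019), where that fit called 47.5% of all genes.

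Part of the order among members followed transcript length. Across the 80 members the log2 fold change had a Spearman correlation of -0.40 with length and a Pearson correlation of -0.43 with log2 length, and a Spearman correlation of 0.28 with GC content. The points share the same 5 libraries and are not independent. The 56 members of up to 1000 bases had a median log2 fold change of 0.08 and the 24 longer ones of 0.01. Length moved with the fold change in the other protein coding genes as well: 949 of up to 1000 bases had a median of 0.39 and 13600 longer ones of -0.06. After a loess correction of each library for length, the members' median log2 fold change was -0.22 and 5 were lower, Rpl3, Rpl22l1, Rpl23a, Rpl39 and Rps4x, where the same fit called 31.8% of all genes and 14.7% as lower. Without Prox1 OE replicate 1 the corrected fit gave 1 member higher and 4 lower, beside 18.9% and 17% of all genes. The cause of the relation with length was not tested.

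**Figure D4:**
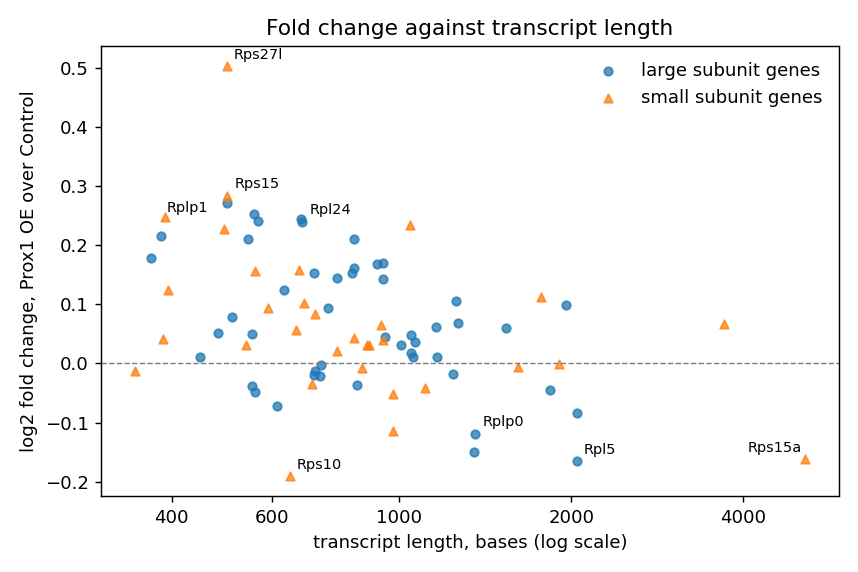
Log2 fold change of each member, Prox1 OE over Control (vertical axis), against transcript length in bases on a log axis, with large subunit genes as circles and small subunit genes as triangles. Shorter transcripts lay higher on average, with Rps27l above all others and Rps10, Rpl5 and Rps15a lowest.

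Expressed per kilobase of transcript, the members' Control level had a median of 28487 normalised counts. It was highest for Rplp1 (83912), Rpl41 (75833) and Rps12 (69555). Rpl24 (183), Rps10 (309) and Rpl13a (1612) were lowest and were also the members closest to the level threshold. In the annotation, 47.0%, 20.6% and 29.4% of their exon bases lie within another gene on the same strand (Gm28037, RPS10-NUDT3 and Gm45713), and each of those genes was listed at 0 in all 5 libraries. Whether reads of the shared exons were left out was not tested, so levels of these 3 genes are uncertain. Rps10 read 183 and 215 normalised counts in Control and 156, 244 and 138 in Prox1 OE, and Rpl24 read 115 and 133 against 119, 166 and 159. Counting error at these levels is a larger share of the value than for any other member. The genes below the threshold were far from it, in that Rpl3l (mean 4.16 normalised counts) and Rpl39l (2.95) were near 0 and Rpl10l was listed at 0. The table also lists 300 ribosomal protein pseudogenes, which held 0.005% to 0.009% of reads, and 0 of the 73 tested were called, against 33.3% of all genes.

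Of 4 ribosomal proteins with other symbols, 0 were called, against 33.3% of all genes. Without Prox1 OE replicate 1, 1 was higher and 0 lower, where 21.9% of all genes were called in each direction. With the total count 0 were higher and 1 lower, where 39.9% of all genes were lower. Fau, which is made as a fusion to a ubiquitin-like protein, read 14875 and 17096 in Control and 14092, 22073 and 20850 in Prox1 OE (log2 fold change 0.23, SE 0.21). Rack1, a scaffold on the small subunit, read 38219 and 38150 against 32066, 39463 and 36857 (-0.09, SE 0.15). Rpl36al read 60.0 and 78.0 normalised counts in Control and 76.7, 96.8 and 118 in Prox1 OE. Its log2 fold change of 0.48 (SE 0.29) was above that of every member but Rps27l. It shares 24.5% of its exon bases with Gm49383, so its level is uncertain in the same way.

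Genes that build or use the ribosome were taken as lists. Of 15 genes of RNA polymerase I and its factors, which transcribe the large rRNA precursor, 0 were higher and 2 lower (median -0.12), namely Taf1d (-0.50) and Rrn3 (-0.36). Of 58 assembly factors, 2 were higher and 6 lower (median -0.07), among them Nop10 (0.60), Tsr2 (0.40), Utp20 (-0.61) and Nop58 (-0.58). Nop10 belongs to the particle that makes pseudouridine in rRNA, Tsr2 is a chaperone of Rps26, Utp20 works in small subunit processing and Nop58 in rRNA methylation. Initiation factors gave 1 higher and 1 lower of 32 (Eif2b4, 0.53, and Eif1ax, -0.35), and elongation factors 0 of 7 in either direction. With the size factors, each of these lists had a smaller share called than the 33.3% of all genes. The counts depended on the scaling. With the total count as library size, 48.6% of all genes were called, 8.62% higher and 39.9% lower. In that fit 10 of the 15 polymerase I genes and 39 of the 58 assembly factors were lower and 0 higher. Of the 32 initiation factors 19 were lower and of the 7 elongation factors 3, with 0 higher in either list. Tsr2 turned to -0.031. Without Prox1 OE replicate 1, assembly factors gave 8 higher and 14 lower, initiation factors 5 higher and 4 lower, polymerase I genes 1 higher and 3 lower and elongation factors 1 higher, where 43.8% of all genes were called.

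Other mRNAs with a TOP tract gave 0 higher and 2 lower of 19, Hnrnpa1 and Npm1, against 17.1% and 16.2% of all genes. This list includes Fau, so it is not free of ribosomal protein genes. Without Prox1 OE replicate 1 it was 2 higher and 4 lower, where 21.9% of all genes were called in each direction. Hnrnpa1, a splicing regulator, read 12195 and 12835 in Control and 7260, 7028 and 6117 in Prox1 OE (log2 fold change -0.88, SE 0.12, adjusted p = 0.0033), and it also fell relative to the members' mean. Npm1, a nucleolar chaperone, read 19602 and 18414 in Control and 13016, 13653 and 13381 in Prox1 OE (-0.51, SE 0.12, adjusted p = 0.016). For both genes the 3 Prox1 OE libraries lay close together and replicate 1 did not stand apart. Over the 19 genes of this list, replicate 1 lay below both other Prox1 OE libraries in 12, against 35.3% of all genes. Its difference from their mean had a median over the list of -0.15 on the log2 scale. With the total count 12 were lower and 0 higher, where 39.9% of all genes were lower. Of the snoRNA host genes, many of them also TOP transcripts, 0 of 11 were called, against 33.3% of all genes. Without Prox1 OE replicate 1, 1 was higher and 0 lower, where 21.9% of all genes were called in each direction. That library lay below both other Prox1 OE libraries in 11 of 11, by a median of -0.49, against 35.3% of all genes. Total count scaling gave 6 of the 11 lower and the length correction 3, where 39.9% and 14.7% of all genes were lower.

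Regulators of ribosomal protein synthesis gave 2 higher and 1 lower of 19, a smaller share than the 33.3% of all genes. Akt1s1, the mTORC1 inhibitor PRAS40, and Rps6kb2, an S6 kinase, were higher (0.57 and 0.54). Both lost the call under total count scaling (0.14 and 0.11), where 0 of the 19 were higher and 10 lower, and after length correction 6 were higher and 2 lower. Of all genes, 8.62% were higher and 39.9% lower in the first of these fits and 17.1% and 14.7% in the second. Myc, which drives transcription of ribosome genes, read 1103 and 1275 in Control and 743, 695 and 698 in Prox1 OE (-0.74, SE 0.13, adjusted p = 0.0066). Akt1 read 57782 and 55267 in Control and 30413, 29720 and 22530 in Prox1 OE (-1.05, SE 0.18, adjusted p = 0.0057), a count in which plasmid and mouse gene were not told apart here. The members' lack of calls thus stood beside lower Myc and lower Akt1 mRNA, and the relation between them was not tested.

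Mitochondrial ribosomal proteins, which serve the separate ribosome that translates mitochondrial mRNAs, were compared with the cytosolic ones. Of 77 tested, 40 were higher and 0 lower, with a median log2 fold change of 0.45, against 17.1% of all genes higher. Mrpl12, of the mitochondrial stalk, read 4805 and 5237 normalised counts in Control and 7445, 10530 and 11834 in Prox1 OE (0.96, SE 0.20, adjusted p = 0.011). Mrps7 read 3018 and 3374 in Control and 4730, 5944 and 6776 in Prox1 OE (0.85, SE 0.16, adjusted p = 0.0088). The Prox1 OE libraries did not overlap with Control for either gene. Prox1 OE replicate 1 was again the lowest of its group, below both others for 72 of the 77, against 35.3% of all genes. Its median deviation from Control was 0.24, against 0.53 and 0.61 in the others. Without that library 69 of the 77 were higher, with a median of 0.58, where 21.9% of all genes were. The median also depended on scaling and on length: it was 0.02 with 3 higher and 1 lower under total count scaling, where 8.62% of all genes were higher and 39.9% lower, and 0.28 with 20 higher after length correction, where 17.1% of all genes were higher.

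A ratio of summed counts within each library is free of the scaling. Mitochondrial ribosomal protein genes held 8.53% and 8.46% of the count of the cytosolic ones in Control and 11.9%, 10.6% and 11.6% in Prox1 OE. All 3 Prox1 OE libraries were above both Controls, with means of 11.4% ± 0.69 (SD, n = 3) and 8.49% ± 0.05 (SD, n = 2). Relative to the members' mean, 3 of the 77 mitochondrial genes were called, all higher, a smaller share than the 14.2% of all genes called in that fit. Hepatocyte markers, whose summed level was 772560 and 1252687 normalised counts in Control and 2786094, 2677144 and 4118475 in Prox1 OE, moved in the same direction, and their part in this ratio was not tested.

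**Figure D5:**
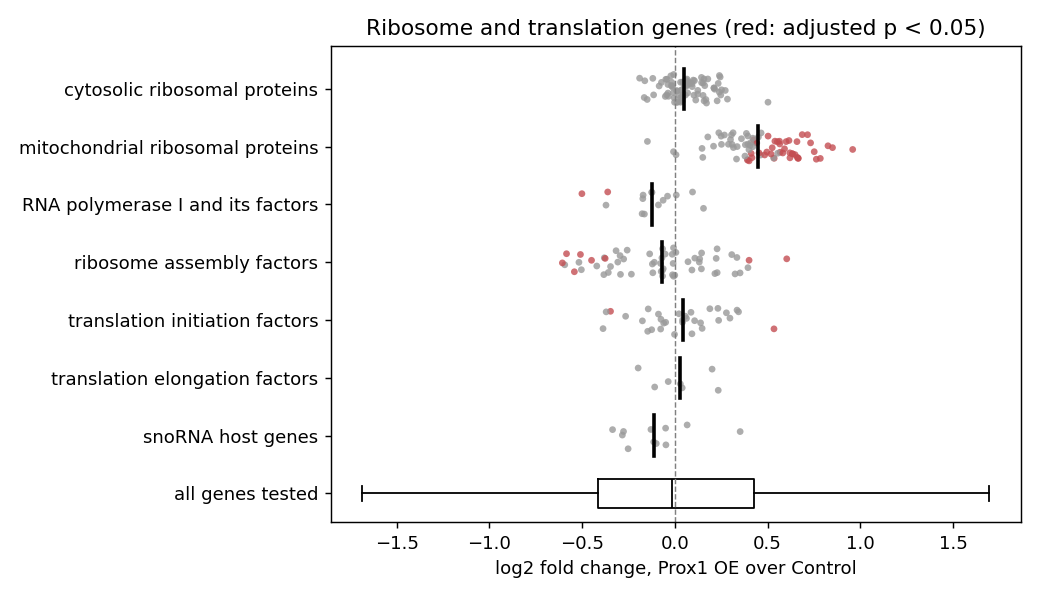
Log2 fold change, Prox1 OE over Control (horizontal axis), for the members and 6 lists of ribosome and translation genes, with 1 point per gene, red where the limma adjusted p was under 0.05 and a bar at the median. The box at the bottom gives the quartiles of all 17105 genes tested, with whiskers to the last value within 1.5 times the box. The members lie in a narrow band around 0.05, and 40 of 77 mitochondrial ribosomal protein genes were higher.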

How the data were processed

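RNA of 5 tumours was sequenced by the authors from dUTP libraries, which keep strand, as pairs of 100 base reads and mapped with STAR to mm10, per the labels. The counting tool and its handling of strand and of reads shared by gene copies are not given in the sources used here. The values in the deposited table are a signal, the reads of each gene divided by a DESeq2 size factor of its library. Whole reads were recovered from it for 100% of values, with 0 columns of per-sample values left unassigned. A deposited table of the authors' own comparison (mean, fold change and p-values) was not used.

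The members and lists were chosen with earlier results of these data known. Symbols, lengths and GC content came from GENCODE on GRCm38, which matched 55137 of 55397 identifiers (99.5%). limma 3.58.1 (R 4.3.3; lmFit, eBayes with trend) was run without covariates on log2(normalised count + 1) for the 17105 genes with a mean of at least 10, two-sided, with Benjamini-Hochberg adjustment at 0.05. Fold changes on that scale understate low genes. Nothing in the labels says that libraries came from separate mice. The paper's figure legend describes RNA-seq with late Prox1 OE as from mice, without matching libraries to single animals. The p-values therefore measure the spread between these samples. Chi-square tests of counts over genes showed that no libraries of a group agree within sampling noise (39.6 to 126 per degree of freedom). The test was checked on simulated counts.

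Named members were the 8 with the largest and the 5 with the smallest differences, the 4 most abundant, paralogues and partners, the stalk proteins, Rpsa, Rps6, Rpl5 and Rpl11, the 3 furthest above and below the members' mean, and those nearest the level threshold. From each list the 2 largest rises and falls past the threshold were named. Rpl15, Rps21, Rpl41, Rps12 and the members listed as called under an alternative were named after their values were seen. Some genes that these rules name are not reported here. Alternatives were TMM, upper-quartile and total count scaling, a pseudocount of 0.1 or 10, a minimum mean of 50 or no minimum, limma without trend, recovered reads in edgeR 4.0.16 and in DESeq2 1.42.0, the replicate number as block, leaving out each library, and loess correction for GC content or length.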

Additional observations from a re-analysis of the deposited data

How the results depend on the processing

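Members called stayed at 0 in both directions under TMM and upper-quartile factors, both pseudocounts, both filters, limma without trend, edgeR and the GC correction. Higher calls became 1 with DESeq2. Lower calls became 18 with the total count as library size, where the members' median log2 fold change was -0.38 and all genes gave 1475 higher and 6833 lower calls, and 5 with the length correction. Added after seeing the data, the total count without Prox1 OE replicate 1 gave 12 lower members, a median of -0.25, and 1692 higher and 7613 lower genes, and the length correction without that library gave 1 higher and 4 lower members. Leaving out each library in turn gave 0 to 15 higher members, a median of -0.04 to 0.22, 0 to 1 higher relative to the members' mean (1 without Prox1 OE replicate 1), and 681 to 3738 higher and 477 to 3753 lower genes, the fewest without Control replicate 1. Prox1 passed the threshold with edgeR (2.35), the replicate block (2.39), without Prox1 OE replicate 1 (1.12, and 1.21 with the length correction and 0.66 with the total count) and without Prox1 OE replicate 3 (2.39), and ranged from 1.12 to 2.39 with each library left out. Over 51 named genes and 1020 values, 870 kept their side, 89 lost and 25 gained a call, 35 moved and 1 turned, Tsr2, at -0.031 with the total count. Same-numbered libraries deviated together little (correlations 0.14 and 0.02 over genes), so the numbers were not taken as pairs. With the replicate block, 0 members were called and their median was -0.01, beside 2719 higher and 2543 lower genes. Leaving out the 4 members that share exon bases with another gene, added after seeing the data, left 76 members, 0 calls and a median of 0.05. The causes of these shifts were not tested. With 2 against 3 libraries, a fold change of a member carried a standard error of about 0.18. Shifts of that size were not detectable, and larger ones could go uncalled. Rps27l, with a log2 fold change of 0.50 (SE 0.20), had a limma adjusted p of 0.090. The count of 0 called members thus does not exclude shifts of that order.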
